A study of Mus musculus with 11 samples.

Results

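The genes described here make, supply and handle catecholamines in the adrenal gland. They are 10 genes named by their function: the enzymes Th, Ddc, Dbh and Pnmt, the cofactor genes Gch1, Pcbd1 and Qdpr, the vesicle transporters Slc18a1 and Slc18a2, and the plasma membrane transporter Slc6a2. All 10 were found in the count table by their symbols, all 10 had a count in some library, and all 10 were among the 20893 of 49671 genes that passed the filter on low counts. Pnmt, Th, Slc6a2 and Slc18a1 reached the filter's minimum count in at most 1 cortical library, where the filter asks for at least 2 libraries, so they passed that filter through the medulla and were bound to differ between tissues. Counts of called genes below therefore describe the set and support nothing beyond it.

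Catecholamines are made from tyrosine in a chain of steps. Tyrosine hydroxylase (Th) makes DOPA, the slow step of the chain, DOPA decarboxylase (Ddc) makes dopamine, dopamine beta-hydroxylase (Dbh) makes noradrenaline inside vesicles, and phenylethanolamine N-methyltransferase (Pnmt) makes adrenaline. Tyrosine hydroxylase needs tetrahydrobiopterin, whose synthesis starts with GTP cyclohydrolase (Gch1) and which is restored after each use by pterin-4a-carbinolamine dehydratase (Pcbd1) and dihydropteridine reductase (Qdpr). The vesicular monoamine transporters VMAT1 (Slc18a1) and VMAT2 (Slc18a2) load dopamine and its products into vesicles, and the noradrenaline transporter (Slc6a2) takes noradrenaline back up from outside the cell. In the adrenal medulla, chromaffin cells carry out these steps, and the surrounding cortex makes steroid hormones.

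RNA came from 6 male Nestin-GFP mice (strain Nes-GFP), in which green fluorescent protein marks cells with activity of the Nestin reporter, and all groups carry this transgene. Nestin is made by neural progenitors and also by cells of vessel walls, so the reporter does not mark a single cell type. Cortex and medulla were dissected apart, pooled as 3 groups of 2 mice, digested and sorted into 180 to 300 cells per tube. The 11 libraries formed 4 groups: GFP+ cells of the cortex (n = 3), GFP- cells of the cortex (n = 3), GFP+ cells of the medulla (n = 3) and GFP- cells of the medulla (n = 2). The mice were about 3.5 months old for libraries 1 and 2 of each cortical group, GFP+ medullary library 1 and both GFP- medullary libraries, and about 2.5 months old for library 3 of each cortical group and GFP+ medullary libraries 2 and 3. The labels give library numbers without naming the pool or animal behind them, so p-values measure the spread between libraries, which may be partly technical.

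Total counts lay between 18500690 and 29204212 per library, and 3 counts, taken as the floor, equal 0.104 to 0.157 CPM, the unit of level used here, in which counts are divided by a scaled library total. Markers of other cells moved with the groups. Of 6 steroid cell markers (among them Star, Cyp11a1, Cyp21a1 and Mc2r) the summed level was 53467 to 59650 CPM in GFP+ and 31861 to 36790 CPM in GFP- cortical libraries. The medullary libraries also held 19016 to 33172 CPM in GFP+ and 7528 to 14545 CPM in GFP- cells. A sum weighs abundant genes most, and the 6 did not move together between the gates. In the cortex Star was called higher in GFP+ cells (log2 1.68, adjusted p = 0.005, edgeR), Mc2r lower (log2 -1.125, adjusted p = 0.00868), and 4 were not called. In the medulla 3 were called higher, Mc2r lower (log2 -1.87, adjusted p = 0.000658), and 2 were not called. The 5 macrophage markers summed to 31.5 to 185 CPM in GFP+ and 2391 to 3201 CPM in GFP- cortical libraries, and to 308 to 988 CPM in GFP+ and 13021 to 15379 CPM in GFP- medullary libraries. The 9 chromaffin markers, such as Chga and Penk, summed to 5253 to 10750 CPM in the 5 medullary libraries, to 148, 9.58 and 2.25 CPM in GFP+ cortical libraries 1, 2 and 3, and to at most 0.315 CPM in GFP- cortical libraries, where 5 of the 9, among them Chgb, Scg2, Penk and Resp18, were at 0. Chromaffin markers were thus read in every medullary library, while the steroid cell sum was above the chromaffin sum in each of them. In both GFP- medullary libraries the macrophage sum was above the chromaffin sum as well. The part of these other cells in the results below was not tested, and in such pools fewer cells of a type and less RNA per cell cannot be told apart.

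The 3 promoters below belong to genes that were read in different sets of groups: Th, read in the medulla with 31 counts in a GFP+ and 1 count in a GFP- cortical library, Dbh, which also appeared in GFP+ cortical cells, and Gch1, which was abundant in 3 of the 4 groups. Each run is the 250 bases before the RefSeq transcript start on build GRCm38.p6 (mm10), written 5′ to 3′ on the gene's strand, with matches in capitals. The motifs searched on both strands were the cyclic AMP response element TGACGTCA, its shorter form TGACG, AP-1 (TGACTCA), Egr1 (GCGGGGGCG), the TATA box TATAAA, the GC box GGGCGG and the homeodomain core TAATTA. TGACGTCA contains TGACG on both strands. The windows are chr7:142899996-142900245 on the minus strand for Th, chr2:27165257-27165506 on the plus strand for Dbh and chr14:47189414-47189663 on the minus strand for Gch1.
Th: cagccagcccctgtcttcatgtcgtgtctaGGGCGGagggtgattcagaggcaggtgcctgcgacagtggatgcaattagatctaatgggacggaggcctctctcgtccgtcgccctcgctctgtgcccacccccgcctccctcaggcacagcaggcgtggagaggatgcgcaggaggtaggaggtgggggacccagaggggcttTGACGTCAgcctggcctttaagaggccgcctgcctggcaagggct
Dbh: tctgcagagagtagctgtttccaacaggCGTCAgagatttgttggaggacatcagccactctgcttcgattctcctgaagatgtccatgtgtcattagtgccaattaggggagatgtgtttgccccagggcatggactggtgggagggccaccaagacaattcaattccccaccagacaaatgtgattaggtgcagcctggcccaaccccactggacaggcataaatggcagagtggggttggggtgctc
Gch1: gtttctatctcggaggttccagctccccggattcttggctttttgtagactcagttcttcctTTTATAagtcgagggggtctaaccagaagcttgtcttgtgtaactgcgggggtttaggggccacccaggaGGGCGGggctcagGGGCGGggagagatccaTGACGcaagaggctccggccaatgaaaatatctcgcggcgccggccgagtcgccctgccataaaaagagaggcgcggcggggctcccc

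The Th window held TGACGTCA with its first base 45 bases before the start and a GC box at 220 bases. Of 32851 RefSeq promoter windows of this length, 1.55% held TGACGTCA. The Dbh window held only the shorter form, on the minus strand, with its match beginning 222 bases before the start, and 17.8% of windows held that form. The Gch1 window held TGACG at 88 bases, GC boxes at 118 and 105 bases, and TATAAA on the minus strand at 188 bases, and 32.7% and 12.4% of windows held a GC box or TATAAA. The base composition was 64.4% G and C in the Th window, 53.2% in Dbh and 59.2% in Gch1. In all, 7 of the 10 genes had a window in the RefSeq table, and Pnmt, Slc18a1 and Slc6a2 had none matched. A match describes letters only. The Th and Dbh windows both lie inside the longer gene models of the count table (chromosome 7, 142892752 to 142931128, minus strand, and chromosome 2, 27165233 to 27183200, plus strand), so neither is upstream of the counted gene.

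Nearly the whole pathway was higher in the medulla than in the cortex. Among GFP+ cells 9 of the 10 genes were higher in the medulla by the edgeR quasi-likelihood test at an adjusted p of 0.05 and Gch1 was not called, where 9.45% of all genes tested were higher. Among GFP- cells 9 of 10 were higher and Qdpr was not called, where 10.6% of all genes were higher. None of the 10 was lower in the medulla, against 6.04% and 8.06% of all genes. Among libraries of the older mice alone, with 1 medullary and 2 cortical GFP+ libraries, 5 of 10 were called between GFP+ cells. The calls lost were those of Dbh (log2 6.46 against 6.24 with all libraries), Qdpr (0.98 against 0.75), Slc18a1 (5.82 against 6.20) and Slc6a2 (2.98 against 5.94). The difference became smaller for Slc18a1 and Slc6a2 and larger for Dbh and Qdpr. In the authors' deposited table of GFP+ cortex over GFP+ medulla all 10 log2 fold changes were negative, with adjusted p of at most 0.0337 for Th, Ddc, Pnmt, Pcbd1 and Slc18a2. That table gave -4.22 for Dbh (adjusted p = 0.232), -3.89 for Slc6a2 (0.126), -0.81 for Qdpr (1), -0.59 for Gch1 (1) and -4.13 for Slc18a1 with no adjusted p. The median log2 difference of the 10 genes was 6.02 in GFP+ and 7.32 in GFP- cells, against 0.0288 and 0.0191 over all genes. With genes that had at most 3 counts in a cortical group set to their counted ratio or bound, the medians were 6.15 and 6.14. The summed level of the 10 genes was 168 to 204 CPM in GFP+ cortical, 110 to 124 CPM in GFP- cortical, 1546 to 2307 CPM in GFP+ medullary and 1047 to 1610 CPM in GFP- medullary libraries.

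**Figure D1:**
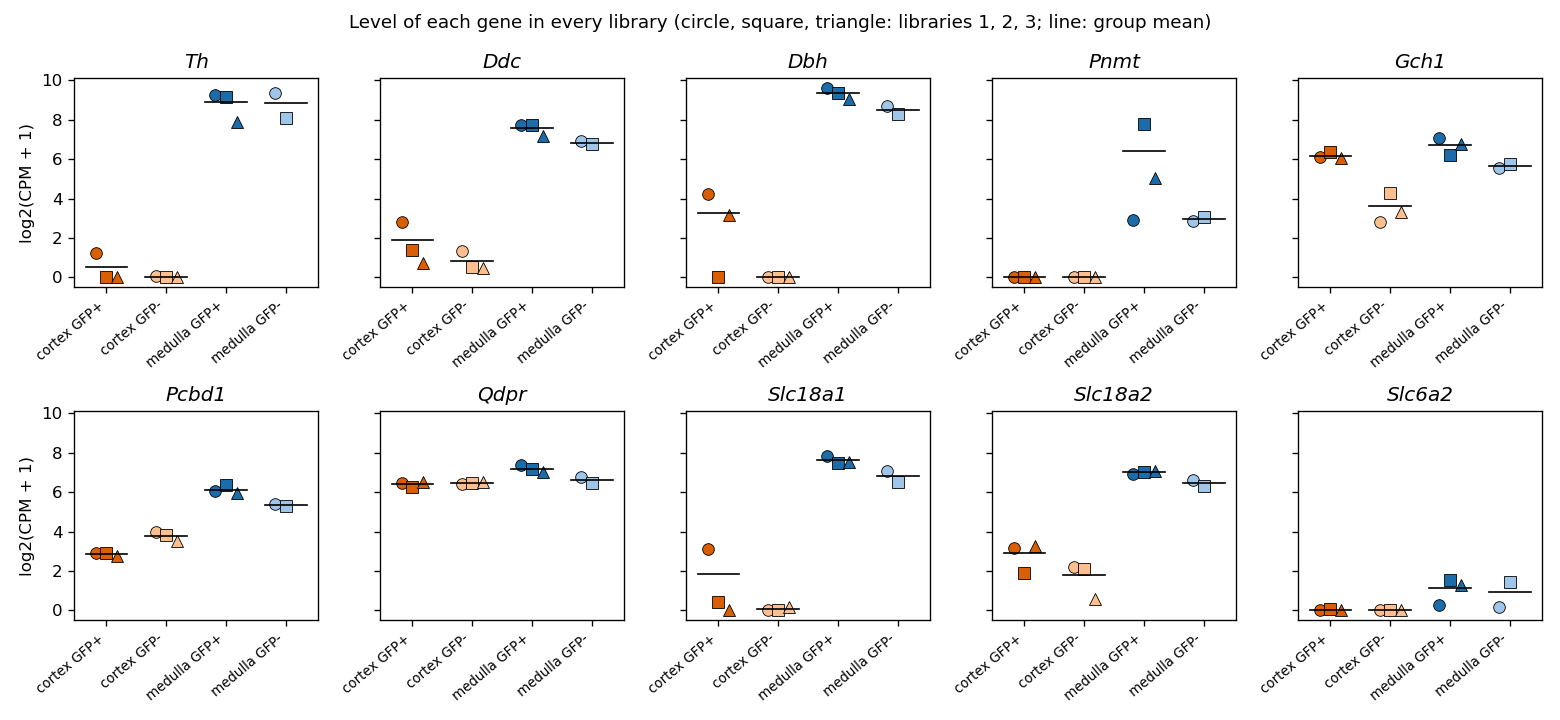
Level of each of the 10 genes in every library as log2(CPM + 1), with libraries 1, 2 and 3 of a group drawn as circle, square and triangle and a line at the group's mean CPM on the same scale. Th, Ddc, Dbh, Slc18a1 and Slc18a2 are high in all 5 medullary libraries and low in cortical libraries, while Qdpr is at a like height in all groups and Gch1 is low in GFP- cortical cells alone.

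Per kilobase of gene length the order of the genes differed between groups. In GFP+ medullary cells Dbh stood highest with 241 ± 47.5 CPM per kb (SD, n = 3), followed by Th at 197 ± 86.7 CPM per kb. Their spreads overlap. Below them Pcbd1 (85.3 CPM per kb), Qdpr (80.5) and Pnmt (73.7) lay within the spread of Pnmt, whose SD was 99.1 CPM per kb. Ddc (42), Gch1 (37.5), Slc18a1 (35.9) and Slc18a2 (33.4 CPM per kb) came next, within the SD of 10.6 CPM per kb of Gch1, and Slc6a2 was last at 0.192 CPM per kb. In GFP- medullary cells Th (195 ± 113 CPM per kb, n = 2) and Dbh (134 ± 25.2 CPM per kb) again came first, and Pnmt stood above Slc6a2 alone at 5.87 CPM per kb. In the cortex the order was led by cofactor genes, with Qdpr at 47.7 and 49 CPM per kb in GFP+ and GFP- cells. Gch1 was next in GFP+ cells (25.6 CPM per kb) and Pcbd1 next in GFP- cells (15.9 CPM per kb).

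Th, the rate-limiting enzyme, had 609, 559 and 232 CPM in GFP+ and 651 and 273 CPM in GFP- medullary libraries. Both gates span nearly the same range. In the cortex it had 1.38 CPM (31 counts) in GFP+ library 1, 0.0373 CPM (1 count) in GFP- library 1 and no count in the other 4 libraries. The log2 difference between medulla and cortex was 9.98 (SE 1.03, adjusted p = 0.000345) in GFP+ cells. Without GFP+ cortical library 1, which held all 31 counts of its group, the call held and the fitted value, which depends on the prior count, was 16.4. With any other single library left out it lay between 9.36 and 10.3. In GFP- cells the counted ratio was 37487 (exact 95% counting interval 6728 to 1480722, adjusted p = 0.000376 from edgeR). Between the gates of the medulla the log2 difference was 0.014 with an SE of 0.73 (adjusted p = 0.994), and its sign changed in 7 of 20 alternatives. Between the gates of the cortex the ratio of 36.2 (counting interval 6.04 to 1477) came from library 1 alone, the library with the highest chromaffin marker sum of the cortex, and was not called (adjusted p = 0.181).

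Ddc, which also serves serotonin synthesis and is found outside chromaffin cells, was low but present in every cortical library. It had 5.92, 1.59 and 0.676 CPM in GFP+ and 1.53, 0.441 and 0.394 CPM in GFP- cortical cells, against 209, 208 and 145 CPM in GFP+ and 118 and 107 CPM in GFP- medullary cells. The gates overlapped in the cortex and did not overlap in the medulla. Neither difference was called: the log2 difference of GFP+ from GFP- cells was 1.78 (SE 0.73, adjusted p = 0.131) in the cortex and 0.74 (SE 0.64, adjusted p = 0.466) in the medulla. Medulla exceeded cortex by a log2 of 6.1 (SE 0.72, adjusted p = 0.000667) in GFP+ and 7.14 (SE 0.80, adjusted p = 0.000681) in GFP- cells. The gene spans chromosome 11, 11814101 to 11898144, on the minus strand.

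Dbh (chromosome 2, 27165233 to 27183200, plus strand) was the enzyme of the chain that was called between the gates of the cortex, though the gates overlap. It had 17.7 CPM (398 counts) in GFP+ cortical library 1, none in library 2, 7.97 CPM (177 counts) in library 3, and no count in any GFP- cortical library. Over the group it was at least 224-fold higher in GFP+ cells, taking 3 counts over the GFP- group as the floor, and was called (adjusted p = 0.0238). GFP+ library 2 overlaps the GFP- libraries at 0. Leaving out GFP+ library 1 or any of the 3 GFP- cortical libraries took the adjusted p to between 0.0535 and 0.0619. The fitted log2 difference was then 9.59 without GFP+ library 1 and 10.7 without a GFP- library, against 10.7 with all libraries, and against a group at 0 these fitted values depend on the prior count. It was also lost among the older mice alone (0.187), with limma voom (0.33) and with a replicate block (0.0548). In the authors' deposited table of this comparison the log2 fold change of Dbh was 1.31, with an SE of 1.17 and an adjusted p of 1.

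The 2 GFP+ cortical libraries with Dbh were unlike in their chromaffin markers. Per 100 CPM of summed chromaffin markers, Dbh amounted to 11.9 CPM in library 1 and 354 CPM in library 3, against 4.92 to 8.71 CPM in the 5 medullary libraries. In library 3 the chromaffin markers summed to 2.25 CPM and Th had no count. The scale was chosen after the values per library were seen, and no test was made. In the medulla Dbh had 779, 640 and 524 CPM in GFP+ and 408 and 312 CPM in GFP- cells, without overlap but not called (log2 0.85, SE 1.08, adjusted p = 0.642). Dbh was higher in the medulla by a log2 of 6.24 (SE 1.19, adjusted p = 0.011) in GFP+ cells and at least 9606-fold (adjusted p = 0.00316) in GFP- cells.

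**Figure D2:**
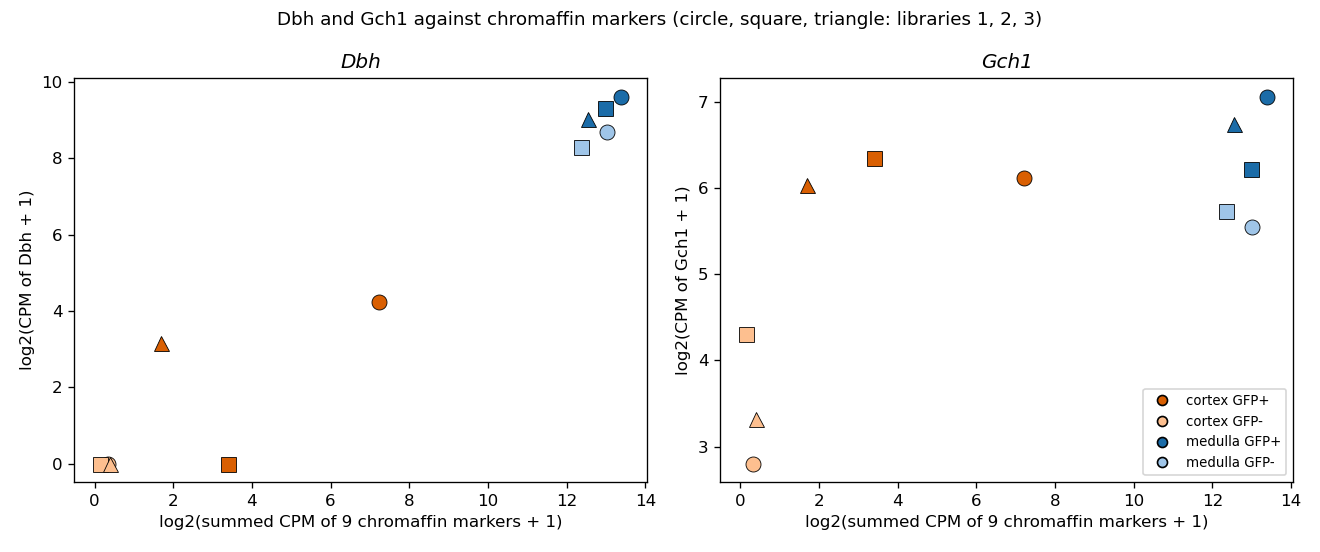
Level of Dbh (left) and Gch1 (right) as log2(CPM + 1) against the summed CPM of 9 chromaffin markers on the same scale, 1 point per library. In GFP+ cortical libraries Dbh reaches 17.7 and 7.97 CPM at chromaffin sums of 148 and 2.25 CPM, and Gch1 stays between 64.5 and 80 CPM while the sum falls from 148 to 2.25 CPM.

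Pnmt, the enzyme that turns noradrenaline into adrenaline (chromosome 11, 98386450 to 98388181, plus strand), was at 0 counts in each of the 6 cortical libraries, which allows at most the floor given above. In GFP+ medullary cells it was at least 2345-fold higher than in GFP+ cortical cells (adjusted p = 0.0142), and in GFP- cells at least 179-fold higher (adjusted p = 0.0418). The GFP+ call was lost with limma voom (0.191) and the GFP- call in 8 of 20 alternatives (0.054 to 0.294), among them leaving out any GFP- library of either tissue or GFP+ medullary library 3. Its level varied more among medullary libraries than that of any other enzyme of the chain, with 6.61, 216 and 32.3 CPM in GFP+ and 6.32 and 7.23 CPM in GFP- libraries. The 2 high values are those of the younger mice, and the GFP+ library of the older mice lies between the GFP- libraries. The labels do not show whether these 2 younger libraries came from different mice, so they may not be independent. The log2 difference between the gates was 3.65 (SE 1.44, adjusted p = 0.131), and among the older mice alone it was -0.0365 (adjusted p = 0.998). An age term added to the fit after the values were seen gave 4.16 for younger over older mice (SE 1.29, unadjusted p = 0.0229, adjusted p = 0.996 by edgeR). No GFP- medullary library came from younger mice, so that gate and age cannot be told apart for the high values.

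Per gene length, the ratio of Pnmt to Th within a library was 0.0222, 0.792 and 0.285 in GFP+ and 0.0199 and 0.0543 in GFP- medullary libraries. Across these 5 libraries the ratio thus ran from 0.0199 to 0.792, while Dbh to Th ran from 0.551 to 1.98 and Ddc to Th from 0.0957 to 0.331. An exact two-sided permutation test between the gates gave p = 0.3 for Pnmt to Th, p = 0.3 for Dbh to Th and p = 0.5 for Ddc to Th, and it cannot go below 0.1 with 3 against 2 libraries.

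**Figure D3:**
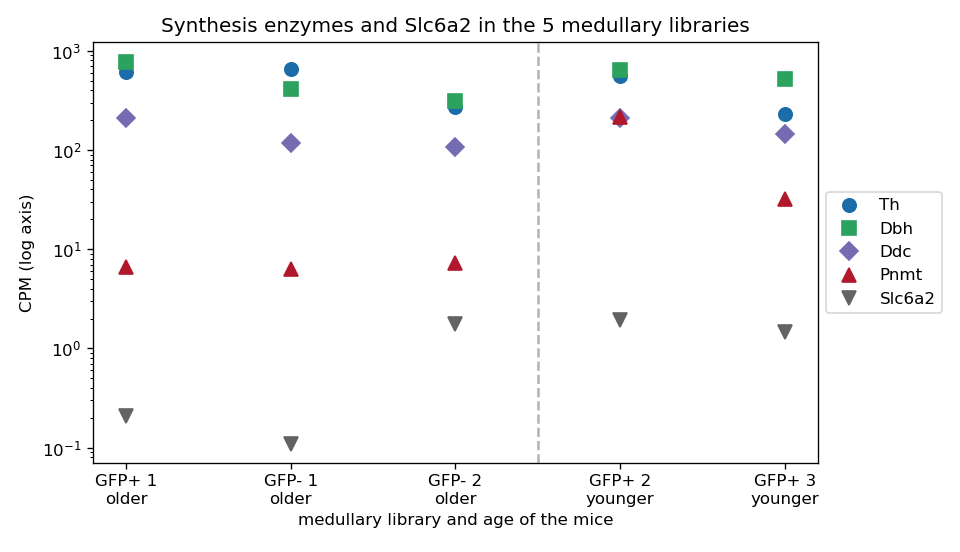
CPM on a log axis of Th, Dbh, Ddc, Pnmt and Slc6a2 in the 5 medullary libraries, with those of older mice left and those of younger mice right of the dashed line. Pnmt lies between 6.32 and 7.23 CPM in the 3 libraries of older mice and at 216 and 32.3 CPM in the 2 of younger mice, while Th, Dbh and Ddc overlap between the ages.

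Gch1, the entry enzyme of tetrahydrobiopterin synthesis (chromosome 14, 47153895 to 47189413, minus strand), followed the GFP gate of the cortex. It had 68.5, 80 and 64.5 CPM in GFP+ and 5.97, 18.7 and 8.98 CPM in GFP- cortical libraries, without overlap. The log2 difference was 2.66 (SE 0.38), a 6.33-fold higher level (adjusted p = 0.00151), and it was called in all 20 alternatives. In the authors' deposited table of this comparison the log2 fold change of Gch1 was 2.59, with an adjusted p of 0.000737. In the medulla Gch1 had 132, 73.3 and 106 CPM in GFP+ and 45.7 and 51.9 CPM in GFP- cells, also without overlap, but the log2 difference of 1.09 (SE 0.41) was not called (adjusted p = 0.0855). It was called with DESeq2 (0.0352), limma voom (0.0233) and without GFP- cortical library 2 (0.0207). The test of whether the gate's effect differed between tissues gave -1.57 (SE 0.53, adjusted p = 0.176).

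The level of Gch1 in GFP+ cortical cells was of the order of the medullary level. Between GFP+ cells the log2 difference of medulla from cortex was 0.55 (SE 0.36, adjusted p = 0.353), and the medullary library with 73.3 CPM lay inside the cortical range. Between GFP- cells it was 2.12 (SE 0.40, adjusted p = 0.00645), and 1.98 among the older mice alone (0.0551). The Gch1 levels of the cortex were not in the order of the chromaffin marker sums: per 100 CPM of summed markers it amounted to 46.1, 835 and 2866 CPM in GFP+ libraries 1, 2 and 3, against 0.55 to 1.77 CPM in the medulla. That scale was chosen after the values were seen, and the part of chromaffin cells in the cortical Gch1 level was not tested. Tetrahydrobiopterin also serves nitric oxide synthases and other hydroxylases.

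Pcbd1 (chromosome 10, 61089343 to 61094328, plus strand), which dehydrates the spent cofactor and as a protein also binds the transcription factor HNF1, moved against the gate in the cortex and with it in the medulla. It had 6.41, 6.61 and 5.81 CPM in GFP+ and 15, 13.4 and 10.3 CPM in GFP- cortical libraries, so that all GFP+ libraries lay lower. In the medulla it had 65, 80.1 and 61.9 CPM in GFP+ and 41.4 and 38.8 CPM in GFP- libraries, so that all GFP+ libraries lay higher. Its log2 difference was -1.04 (SE 0.18, adjusted p = 0.00413) in the cortex and 0.78 (SE 0.20, adjusted p = 0.0188) in the medulla. The cortical call held in all 20 alternatives, and the medullary one was lost in 5 of 20 (adjusted p 0.0534 to 0.166), among them leaving out GFP- medullary library 1 or 2 or GFP+ medullary library 2. The interaction of gate and tissue was 1.82 (SE 0.27, adjusted p = 0.0212), the single one called among the 10 genes, where 0.756% of all genes were called in this direction and 0.857% in the other. Medulla exceeded cortex by a log2 of 3.46 (SE 0.19, adjusted p = 0.000104) in GFP+ and 1.64 (SE 0.19, adjusted p = 0.000834) in GFP- cells. In the authors' deposited table the log2 fold change of Pcbd1 in the cortex was -1.05 with an adjusted p of 1, and what hypothesis that p tests is not given in the sources used here.

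Qdpr, which regenerates the cofactor from its quinonoid form (chromosome 5, 45434021 to 45450236, minus strand), was the most even of the 10 genes. It had 88.4, 76.7 and 90.7 CPM in GFP+ and 85.1, 87.9 and 89.8 CPM in GFP- cortical libraries, which overlap (log2 -0.039, SE 0.14, adjusted p = 0.894). In the medulla it had 164, 141 and 127 CPM in GFP+ and 109 and 87.4 CPM in GFP- libraries, a log2 difference of 0.55 (SE 0.16, adjusted p = 0.0306) that lost its call in 8 of 20 alternatives (0.0531 to 0.201), among them leaving out library 1 of either cortical group, GFP+ medullary library 1 or GFP- medullary library 2. Medulla exceeded cortex by a log2 of 0.75 (SE 0.14, adjusted p = 0.00565) in GFP+ cells, and in GFP- cells the log2 difference was 0.17 (SE 0.15, adjusted p = 0.488). An antisense gene, Gm42413, shares 18.6% of the exon bases of Qdpr in a library type that does not mark strand, and had no count.

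Both vesicle transporters were present in the medulla at similar levels per length. Slc18a1 (VMAT1, chromosome 8, 69037711 to 69089235, minus strand) had 223, 175 and 183 CPM in GFP+ and 131 and 90.3 CPM in GFP- medullary libraries. Slc18a2 (VMAT2, chromosome 19, 59260878 to 59296012, plus strand) had 119, 129 and 133 CPM in GFP+ and 98.2 and 77.6 CPM in GFP- medullary libraries. For both genes the GFP+ libraries lay above the GFP- libraries without being called, with log2 differences of 0.81 (SE 1, adjusted p = 0.628) and 0.53 (SE 0.57, adjusted p = 0.569). The ratio of Slc18a1 to Slc18a2 per length was 1.32, 0.956 and 0.969 in GFP+ and 0.941 and 0.819 in GFP- libraries (exact two-sided permutation p = 0.4).

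In the cortex Slc18a1 was read in 3 libraries and Slc18a2 in all 6. Slc18a1 had 7.57, 0.344 and 0 CPM in GFP+ libraries, in the order of the chromaffin marker sum, and 0, 0 and 0.118 CPM in GFP- libraries. The counted ratio of 178 to 3 counts gave 69.4 (counting interval 23.4 to 340), which was not called (adjusted p = 0.0551). Of the 178 counts, 170 came from GFP+ library 1, and without that library the fitted log2 difference fell from 5.94 to 2.06 (0.345). It was called without GFP+ library 2 (0.0388) or 3 (0.0158). Slc18a2 had 7.93, 2.79 and 8.56 CPM in GFP+ and 3.66, 3.23 and 0.512 CPM in GFP- cells, overlapping (log2 1.37, SE 0.56, adjusted p = 0.131). In GFP+ library 3, Slc18a2 and Dbh thus had 8.56 and 7.97 CPM while Th and Slc18a1 had none. Slc18a2 is also carried by mast cells and platelets. Of 6 mast cell markers Mcpt4, Tpsb2, Cma1 and Fcer1a were at 0 in all 6 cortical libraries. Cpa3 was lower in GFP+ cortical cells (fitted log2 -8.48, adjusted p = 0.00669, edgeR), and Kit was not called (3.01, 0.168). The whole list summed to 0.721 to 1.69 CPM in GFP+ and 4.57 to 9.62 CPM in GFP- cortical libraries. The part of mast cells in the Slc18a2 level was not tested. Medulla exceeded cortex in Slc18a2 by a log2 of 4.30 (SE 0.59, adjusted p = 0.00134) in GFP+ and 5.15 (SE 0.64, adjusted p = 0.00104) in GFP- cells. For Slc18a1 the log2 difference was 6.20 (SE 1.13, adjusted p = 0.00547) in GFP+ cells, and 10.1 (0.000176) without GFP+ cortical library 1. In GFP- cells the counted ratio was 2961 (counting interval 1013 to 14362, adjusted p = 0.00232).

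Slc6a2 (chromosome 8, 92960079 to 93001667, plus strand) was low in every group. It had 0.206, 1.95 and 1.46 CPM in GFP+ and 0.11 and 1.75 CPM in GFP- medullary libraries, that is 4, 56, 28, 3 and 43 counts, and 1 count in all 6 cortical libraries. The gates overlap in the medulla (log2 0.38, SE 1.38, adjusted p = 0.882). The counted ratio of medulla to cortex was 88.9 (counting interval 15.5 to 3549, adjusted p = 0.0464) in GFP+ cells, and medulla was at least 23.4-fold higher in GFP- cells (adjusted p = 0.0302). The call was lost in 10 of 19 alternatives for the GFP+ comparison, among them leaving out any GFP+ cortical library, GFP- cortical library 2 or 3 or GFP+ medullary library 2 or 3. For the GFP- comparison it was lost in 6 of 19, among them leaving out any GFP- cortical library or GFP- medullary library 2. Counting intervals and floors cover counting error only, since reads were amplified by PCR without molecular identifiers and do not stand for independent molecules.

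**Figure D4:**
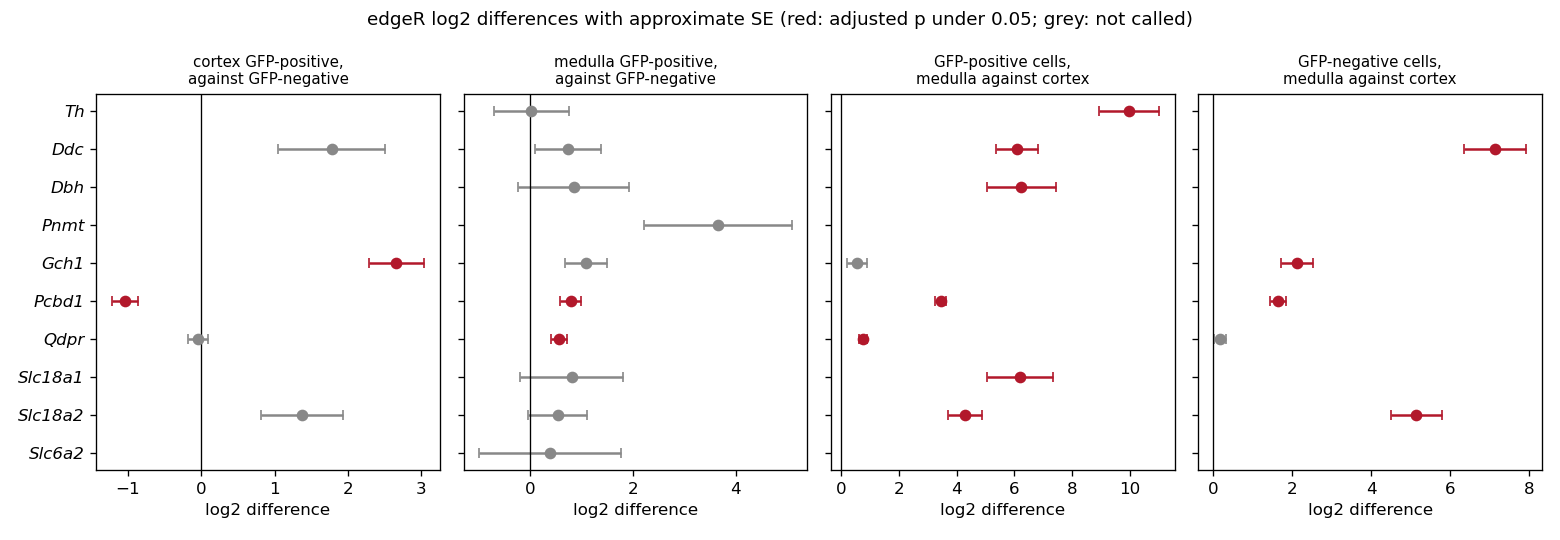
Log2 difference and approximate SE of each gene from the edgeR fit in 4 comparisons, with genes called at an adjusted p of 0.05 in red and others in grey. Genes with at most 3 counts in a group of the comparison are left out, and the axes differ between panels. In the left panels Gch1 lies highest and Pcbd1 lowest in the cortex, and the tissue panels show called genes to the right of 0 only.

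Between the gates, fewer of the 10 genes differed. In the cortex Dbh and Gch1 were higher and Pcbd1 lower in GFP+ cells, against 7.14% of all genes higher and 7.59% lower. In the medulla Pcbd1 and Qdpr were higher and none lower, against 10.2% higher and 11.1% lower of all genes. In the authors' deposited table of the medullary gates the adjusted p was 0.796 for Pnmt, was not given for Slc18a1 and was 1 for the others, Pcbd1 (log2 0.76) and Qdpr (log2 0.52) included. The median log2 difference was 1.86 in the cortex and 0.762 in the medulla, against 0.0294 and 0.0876 over all genes, and 2.22 in the cortex over the 8 genes with a fold once low counts were set to their ratio or bound. The means of all 10 genes were above those of GFP- cells in the medulla, from Pnmt at 85.1 ± 114 (n = 3) against 6.77 ± 0.644 CPM (n = 2) to Th at 467 ± 205 (n = 3) against 462 ± 268 CPM (n = 2). GFP+ medullary libraries also had higher glial marker sums (1824 to 4233 CPM against 15.3 to 24.3 CPM) and lower macrophage marker sums, as given above, and the part of this difference in cell make-up in the medullary differences was not tested.

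Of 44 other genes of catecholamine handling in 6 lists, 39 were tested. In the cortex 7 of 39 were higher and 5 lower in GFP+ cells, where 7.14% of all genes were higher and 7.59% lower. In the medulla 5 of 39 were higher and 4 lower, shares close to the 10.2% and 11.1% of all genes. Between tissues 10 were higher and 3 lower in the medulla among GFP+ cells, against 9.45% and 6.04% of all genes, and 12 and 5 among GFP- cells, against 10.6% and 8.06%. Among those higher in both gates, Chrna3, Chrnb4 and Slc10a4 passed the filter on low counts through the medulla and were bound to differ between tissues. The median log2 difference of the 39 genes was 0.44, 0.241, 0.535 and 1.28 in these 4 comparisons.

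None of the 5 further biopterin genes, among them Pts, Spr, Gchfr and Pcbd2, was called between the gates of either tissue, unlike Gch1 in the cortex, though that difference among genes was not tested. Pts, the second enzyme of the synthesis, had 112 ± 7.22 CPM in GFP+ and 92 ± 10 CPM in GFP- cortical cells (n = 3 each). Cyb561, the vesicle cytochrome that recycles ascorbate for Dbh, had 494 ± 47.8 CPM in GFP+ medullary against 72.7 ± 12.4 CPM in GFP+ cortical cells (n = 3 each, log2 2.76, adjusted p = 0.000174). Among GFP- cells its log2 difference was 2.59 (adjusted p = 0.000188). Dnajc12, a chaperone of the aromatic amino acid hydroxylases, was higher in GFP+ cells of the cortex (log2 0.95, adjusted p = 0.0268) and of the medulla (log2 1.11, adjusted p = 0.0181).

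Slc29a4, the low-affinity plasma membrane monoamine transporter, followed the gate in both tissues. It had 17.6, 16.9 and 15.6 CPM in GFP+ and 1.19, 1.36 and 1.69 CPM in GFP- cortical libraries, and 45.8, 26 and 35.7 CPM in GFP+ and 14.3 and 14.9 CPM in GFP- medullary libraries. No values overlapped, and the log2 difference was 3.56 (SE 0.26, adjusted p = 6.64e-05) in the cortex and 1.30 (SE 0.27, adjusted p = 0.00641) in the medulla. The interaction of gate and tissue was called for Slc29a4 at -2.26 (SE 0.35, adjusted p = 0.0223). Slc7a5, a subunit of the LAT1 carrier that brings in tyrosine, was higher in GFP+ cells of the cortex (log2 1.86, adjusted p = 0.00435) and the medulla (log2 1.44, adjusted p = 0.0212). Its partner Slc3a2 was higher in GFP+ cells of the cortex (log2 0.67, adjusted p = 0.00584), and its interaction was -1.06 (adjusted p = 0.0293). Slc7a8, another carrier of neutral amino acids, was lower in GFP+ cells of the medulla (log2 -2.12, adjusted p = 0.0254). Slc10a4, a vesicle protein of monoamine and cholinergic neurons, was higher in medulla than cortex by a log2 of 6.15 (adjusted p = 0.00455) in GFP+ and 8.39 (adjusted p = 0.003) in GFP- cells.

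Of 7 breakdown genes, 4 were lower in GFP+ cells of the cortex, among them Maob, Sult1a1 and Aldh2, and none was higher, against 7.59% lower and 7.14% higher of all genes. Maob, a monoamine oxidase, had 12.7, 15 and 21.3 CPM in GFP+ and 71.1, 31.4 and 65.7 CPM in GFP- cortical libraries (log2 -1.78, adjusted p = 0.0033), and its gate difference differed between tissues (interaction 2.49, adjusted p = 0.0297). Aldh2, an aldehyde dehydrogenase, differed by a log2 of -0.54 (adjusted p = 0.0221). In the medulla Maoa was higher in GFP+ cells (log2 1.83, adjusted p = 0.019) and Akr1a1, an aldehyde reductase, lower (log2 -0.41, adjusted p = 0.0186).

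Of 10 receptor genes tested, 4 were higher in the medulla among GFP+ cells and 5 among GFP- cells, against 9.45% and 10.6% of all genes, and none was lower. Chrna3 and Chrnb4, called in both gates, passed the filter on low counts through the medulla and were bound to differ, so these counts describe the list only. Chrnb4 and Chrna3, subunits of the nicotinic receptor of chromaffin cells, had 22.7, 14.8 and 17.4 CPM and 134, 87.9 and 121 CPM in GFP+ medullary libraries. Chrnb4 had no count in GFP+ cortical cells, and Chrna3 was read in GFP+ cortical library 1 alone there (9.13 CPM), the library with the most chromaffin marker RNA. Adcyap1r1, the receptor for the peptide PACAP, was higher in medulla in both gates (log2 4.4, adjusted p = 0.00158, and 8.97, adjusted p = 0.000417). So was Chrna7, a nicotinic subunit (log2 4.55, adjusted p = 0.00385, and 6.14, adjusted p = 0.00242).

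The genes nearest in pattern were taken as the smallest root mean square difference of centred log2(CPM + 1) over the 11 libraries, as a description. For Th these were Npy (0.835), Dlk1 (0.934), Snap25 (1), Nap1l5 (1.03) and Chga (1.07 on the log2 scale). For Slc18a2 they were St18 (0.459), C1ql1 (0.505), 1500009L16Rik (0.552), Gng3 (0.559) and Pclo (0.582). For Gch1 they were Plppr2 (0.428), Slc29a4 (0.432), Zfp423 (0.458), Rarb (0.47) and Dnm3os (0.491). For Pnmt they were Rit2 (0.762), Faim2 (0.95), Serpinf1 (0.966), A730017C20Rik (0.971) and Zcchc12 (0.986). Rit2, picked for its likeness over these same libraries, had 8.57, 38.3 and 17.2 CPM in GFP+ and 7.49 and 7.88 CPM in GFP- medullary libraries. The same 2 libraries were thus high as for Pnmt. GFP+ library 3 was not high for Faim2 (11.7 CPM, with 14 in GFP- library 1) or Zcchc12 (6.74 CPM, with 7.07 in GFP- library 2). It lay above both GFP- libraries for Serpinf1 and A730017C20Rik, but so did GFP+ library 1, unlike for Pnmt. That library had 35.8 CPM of Serpinf1 against 15.8 and 23.8 CPM in GFP- libraries, and 20 CPM of A730017C20Rik against 12.3 and 16.3 CPM.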

How the data were processed

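RNA was sequenced from 11 pools of sorted cells with poly(A) priming, template switching and 17 PCR cycles, without molecular identifiers or strand, per the labels' protocols. The authors deposited whole-number counts of reads per gene. Their 3 deposited comparison tables hold log2 fold changes and adjusted p-values, per the file headers, and 17 columns of per-library values in them were not used. Per the submitters' processing notes the tools included featureCounts 1.6.0, GSNAP, bcl2fastq 2.19.1, DESeq and DESeq2 1.18.1, and the build was mm10, with no roles given. Gene coordinates are those of mm10, and gene lengths are as deposited.

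Counts of 20893 genes passing filterByExpr entered 1 edgeR 4.0.16 quasi-likelihood fit of the 4 groups (R 4.3.3, TMM scaling, 7 residual degrees of freedom), with Benjamini-Hochberg adjustment over all genes at 0.05. The SE is the log2 difference divided by the square root of F. The 92 spike-in sequences, with 10 counts in all, were left out. CPM use TMM-scaled totals. A group without counts gives a bound against 3 counts over the group, and 1 to 3 counts give a ratio with its exact 95% interval. Library pairs of a group differed beyond counting noise (chi-square per degree of freedom 29.1 to 104 over 10 pairs). The fitting script was tested on simulated data.

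The 10 genes, the 6 pathway lists and the 8 marker lists were chosen with earlier results of these data known. The text names the 10 genes in every comparison, of the called pathway genes those among the 8 with the smallest adjusted p of a comparison and, chosen after their values were seen, Dnajc12 in the cortex, Chrna3 and Pts, and the 5 genes nearest in pattern to Th, Pnmt, Gch1 and Slc18a2. Alternatives were other scalings, no filter, DESeq2 1.42.0, limma voom 3.58.1, a replicate block, age, fewer groups and leaving out each library. Some genes of the lists are not reported here. The age term and the scale per chromaffin marker were added after the values were seen.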

Additional observations from a re-analysis of the deposited data

Results flagged for a closer look

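Pcbd1 differed in its response to the gate between tissues, by a test of the difference itself. The interaction was 1.822 on the log2 scale (SE 0.27, adjusted p = 0.0212, edgeR), with all 3 GFP+ libraries below all 3 GFP- libraries in the cortex (6.28 ± 0.419 against 12.9 ± 2.4 CPM) and all 3 above both GFP- libraries in the medulla (69 ± 9.75 against 40.1 ± 1.83 CPM). The difference lost its call among the older mice alone (adjusted p = 0.166), without GFP- cortical library 2 (0.0537) and without GFP- medullary library 2 (0.078), and it kept its sign in all 19 alternatives.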

How the results depend on the processing

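Over 46 differences of single genes and 902 alternative values, 822 kept direction and side of the threshold, 52 lost the call, 11 gained it and 17 changed sign. The calls of Gch1 and Pcbd1 in the cortex, of Th, Ddc, Pcbd1 and Slc18a2 between tissues in both gates, and of Dbh and Slc18a1 between tissues in GFP- cells held in every alternative run. Leaving out TMM shifts all log2 differences between the gates of the cortex by -0.103. Those between the gates of the medulla and between tissues shift by less than 0.1. The interaction, a difference of 2 gate differences, shifts by more. Leaving out TMM changed no call of the 10 genes. Among the older mice alone, 0 genes were called between the gates of the medulla (3 at an unadjusted p under 0.05), 5 between tissues in GFP+ cells and 0 in the interaction (2 unadjusted). In the medulla, 1 gene was called with no filter or with age as a covariate, 4 with limma voom, and 0 with the 2 medullary groups alone by edgeR (8 unadjusted). DESeq2 called 2 interactions, Dbh besides Pcbd1, and so did edgeR without GFP+ cortical library 2. Leaving out 1 library at a time, 2 to 5 genes were called in the cortex, 0 to 3 in the medulla, 8 to 9 between tissues in GFP+ cells, 7 to 9 in GFP- cells and 0 to 2 in the interaction. The 5 in the cortex came without GFP+ library 3 and included Ddc (adjusted p = 0.0492) and Slc18a1 (0.0158), and Slc18a1 was also called without GFP+ library 2 (0.0388) and with no filter (0.0207). In the medulla, 0 were called without GFP- library 2, Pnmt was called without GFP+ library 1 (adjusted p = 0.0399), and 1 gene was called without GFP- cortical library 1, GFP+ cortical library 1, GFP- medullary library 1 or GFP+ medullary library 2. The cause was not tested. Signs changed for Slc6a2 in the medulla with age as a covariate (-1) and in older mice (-2.14), for Pnmt in the medulla in older mice (-0.0365) and for Th in the medulla with the 2 groups alone (-0.026). With 1 library left out, the ranges that crossed 0 were -0.486 to 0.777 for Th and -0.526 to 3.4 for Slc6a2 in the medulla, -1.79 to 6.47 for Th and -0.085 to 0.0316 for Qdpr in the cortex, -0.00854 to 0.322 for Qdpr between tissues in GFP- cells, and -6.52 to 1.73 for Th and -2.03 to 0.154 for Ddc in the interaction.

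GFP+ medullary library 2 came from younger mice and the other libraries numbered 2 from older mice. That number therefore does not stand for the same mice, and a replicate block joins different mice there. Same-numbered libraries deviated together only weakly (correlations of -0.014 to 0.114), and the numbers were not taken as pairs. In both comparisons of 3 with 3 libraries, though, all 6 correlated best with their own number. With a replicate block 2 genes were called in the cortex, 2 in the medulla, 9 and 8 between tissues in GFP+ and GFP- cells and 1 in the interaction. Dbh in the cortex (adjusted p = 0.0548) and Pnmt between tissues in GFP- cells (0.0642) were then not called. Depth limits Slc6a2, which never exceeded 1.95 CPM, and all folds against groups of at most 3 counts.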
